A study of Mus musculus with 14 samples.

Results

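Whole mammary glands (4th inguinal) of untreated female CD1 mice, an outbred strain, were compared between 7 weeks (7wk) and 4 weeks (4wk) of age, with 3 arrays (A, B and C) at each age. These are 6 of the 14 arrays of a series on Affymetrix expression arrays whose other ages are 3wk (3 arrays), 5wk (2 arrays) and 6wk (3 arrays). No group carries a transgene or a deletion, lymph nodes had been removed from the glands, and each array was hybridised with RNA pooled from at least 3 mice, so the spread between arrays is that between pools. The comparison covered all non-control probe sets that name 1 gene: 20380 do, 3482 of them lay below the limit on low signal, and the remaining 16898, for 10671 genes, were tested. Each value is a signal divided by the median of its probe set across the series, which compares ages within a gene but sets no gene against another, and a positive log2 difference means higher at 7wk.

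In mice, puberty drives the ducts of the mammary gland into the fat pad. Oestrogen and growth hormone act on ductal epithelium and stroma, progesterone adds side branches, and prolactin acts through its receptor and the transcription factor STAT5 to switch on milk protein genes in luminal cells. Milk proteins are known mainly from pregnancy and lactation, and casein RNA can be found in virgin glands at low levels. The fat pad of young mice also holds fat cells with brown or beige character, which carry the uncoupling protein Ucp1 and many mitochondria. In whole-gland RNA, fewer cells of a type and less RNA per cell cannot be told apart.

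The 3 probe sets with the largest rises belong to caseins, the main milk proteins, and their promoters are shown because STAT5 binds the motif TTCNNNGAA and the 3 genes moved together. The motif reads the same on both strands, and it was found in all 3 promoters and in 2726 of 32851 promoters of the same 300 bases (250 before the annotated start and 50 after it), or 8.3%. Csn2 (beta-casein), on the minus strand at chr5:87699426-87699675, and Csn1s1 (alpha-s1-casein), on the plus strand at chr5:87665958-87666207, are printed as the 250 bases before the start, 5′ to 3′ in the direction of the gene. The match, in capitals, begins 93 bases before the start in Csn2 and 100 bases before it in Csn1s1. In Csn1s2a (an alpha-s2-casein), on the plus strand, the match begins at base 21 after the annotated start, and only the 29 bases around it, chr5:87774460-87774488, are shown. The sequences are from RefSeq on GRCm38.p6, and a match describes letters, not binding.
Csn2: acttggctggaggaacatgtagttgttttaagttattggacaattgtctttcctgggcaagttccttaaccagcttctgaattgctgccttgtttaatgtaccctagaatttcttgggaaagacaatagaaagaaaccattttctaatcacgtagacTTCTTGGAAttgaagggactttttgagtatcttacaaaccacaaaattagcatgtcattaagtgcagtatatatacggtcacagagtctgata
Csn1s1: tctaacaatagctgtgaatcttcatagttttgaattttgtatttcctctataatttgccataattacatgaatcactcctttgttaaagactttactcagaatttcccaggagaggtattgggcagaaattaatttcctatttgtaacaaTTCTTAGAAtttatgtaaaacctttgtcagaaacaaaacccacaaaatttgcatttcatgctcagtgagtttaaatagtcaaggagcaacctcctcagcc
Csn1s2a: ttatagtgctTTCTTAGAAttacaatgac

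Milk protein and luminal epithelial genes gave the largest share of rises among the gene lists, and brown fat and respiratory chain genes the largest share of falls. Calls were made for 594 (3.21%) of all 18480 tested probe sets, of which 337 (1.82%) were higher at 7wk and 257 (1.39%) lower. Of the 16898 that name 1 gene, 538 (3.18%) passed an adjusted p of 0.05 in limma's moderated test with Benjamini-Hochberg adjustment, 313 higher (1.85%) and 225 lower (1.33%) at 7wk, and they belong to 473 genes. The values of the 2 ages did not overlap for any of the 538, against 25.1% of all probe sets without overlap. Rises were larger than falls: 206 probe sets rose and 57 fell by at least 1 on the log2 scale, and 15 rose and 5 fell by at least 3. With each gene taken as the mean of its probe sets, 403 of 10671 genes were called (3.78%), 249 higher (2.33%) and 154 lower (1.44%), while the median over all genes was 0.05. Of the 10671 genes, 1937 (18.1%) had an unadjusted p under 0.05, and 6018 were above 0.

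Signs of handling differed between the ages as well, and their part in the result was not tested. The mean log2 ratio of the 18 hybridisation control probe sets, which report on RNA spiked in by the laboratory, was -1.86, -0.79 and -0.97 in 7wk arrays, against 1.10, 0.08 and 0.92 in 4wk arrays, with no overlap. The 5′ to 3′ log2 ratio of the actin control, a sign of how complete the labelled RNA was, was 0.16, 0.14 and 0.04 at 7wk, against 0.28, 0.23 and 0.10 at 4wk, and the ages overlapped. Each end had been divided by its own median, so such a ratio compares arrays and does not set 1 end against the other. The same ratio of the pyruvate carboxylase control did not overlap, at 0.76, 0.90 and 0.79 in 7wk arrays, against 0.08, 0.44 and 0.46 in 4wk arrays. Neither did that of the Gapdh control, at 0.11, 0.16 and 0.14 in 7wk arrays, against 0.03, 0.07 and 0.10 in 4wk arrays. The transferrin receptor control overlapped, at -1.04, 1.38 and 0.92 in 7wk arrays, against 0.20, -1.38 and -1.19 in 4wk arrays. Exact permutation tests (two-sided, n = 3 each) gave p = 0.1 for the hybridisation controls, pyruvate carboxylase and Gapdh, the smallest that 3 against 3 arrays can give, and p = 0.3 for actin. With the hybridisation controls as a covariate the count fell to 3 of all 18480 tested probe sets, against 594 without it, and with the step of the authors' array scaling as a covariate (chosen after seeing the data) to 13. All 594 kept their direction in both fits.

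**Figure D1:**
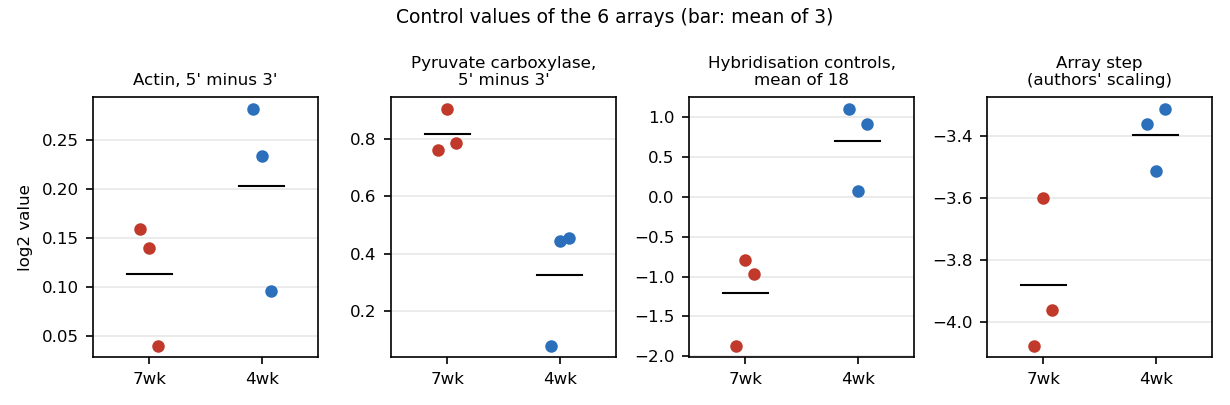
Control values of the 3 arrays at 7wk (left) and the 3 at 4wk (right) on the log2 scale: 5′ minus 3′ for actin and pyruvate carboxylase, the mean of 18 hybridisation controls, and the array's scaling step. Points are arrays and bars are means of 3; among these 4 the ages overlap for actin only, and the hybridisation controls average -1.21 at 7wk and 0.70 at 4wk.

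The caseins had the 3 largest rises among called probe sets. Csn1s2a (probe set 1436170_a_at) had ratios of 16.9, 16.4 and 7.12 in 7wk arrays, against 0.0195, 0.0351 and 0.0654 in 4wk arrays. Csn2 (1420369_a_at) had 16.1, 14.6 and 11.8 at 7wk, against 0.14, 0.0987 and 0.134 at 4wk. Csn1s1 (1420627_a_at) had 7.68, 3.90 and 4.31 at 7wk, against 0.24, 0.127 and 0.248 at 4wk. Every 7wk array exceeded every 4wk array by a wide margin in each of the 3 genes. The log2 differences were 8.46 (SE 0.57, adjusted p = 8.42e-05 by limma over probe sets) for Csn1s2a, 6.84 (SE 0.57, adjusted p = 0.000239) for Csn2 and 4.69 (SE 0.58, adjusted p = 0.00304) for Csn1s1. A second probe set of Csn2 differed by 5.35 and a second one of Csn1s2a by 7.41, while the third of Csn1s2a (1438694_at) differed by 0.14 and was not called (adjusted p = 0.827). The calls of the 3 caseins held in each of the 14 fits that left out 1 array. The other 2 casein genes tested were not called: Csn3 (kappa-casein) differed by 1.20 (adjusted p = 0.234 over genes) and Csn1s2b by -0.26 (adjusted p = 0.923), and both overlapped between the ages.

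Of 20 tested genes of the milk and secretory list, 13 rose and 0 fell, with a median of 1.28 against 0.05 for all genes. Muc1, a mucin of the luminal surface that is also shed into milk, had 9.74, 15.5 and 7.66 at 7wk, against 0.99, 0.472 and 1.01 at 4wk, a log2 difference of 3.75 (SE 0.83, adjusted p = 0.0314 over genes). Its 4wk signal lay below the limit for low levels on every array, and this call was lost without any one of the 3 arrays at 7wk or the 3 at 4wk, with log2 differences between 3.39 and 3.98 over the 14 fits that left out 1 array. Btn1a1 (butyrophilin, a coat protein of milk fat globules) rose by 2.53, the water channel Aqp5 by 2.51, the chitinase-like Chil1 by 2.40, the antimicrobial lipocalin Lcn2 by 1.71 and the lactose synthase subunit Lalba by 1.69. Mfge8, a milk fat globule protein, rose by 1.22 and lactoferrin (Ltf) by 1.34. Whey acidic protein (Wap), which is made late in pregnancy and in lactation, had 1.0, 0.926 and 0.808 at 7wk, against 0.774, 0.645 and 1.07 at 4wk. These overlap, and the difference of 0.16 was not called (adjusted p = 0.825) and turned to -0.16 with the hybridisation controls as a covariate.

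**Figure D2:**
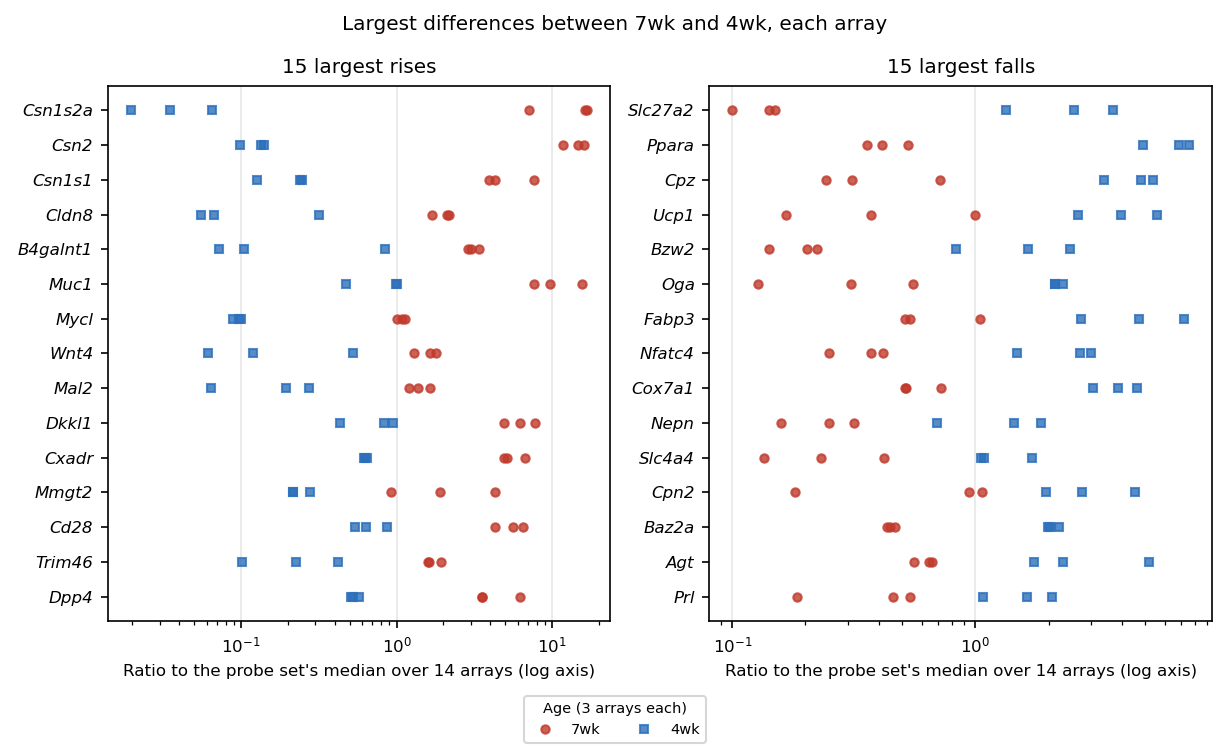
Ratios of the 15 probe sets with the largest rises (left) and the 15 with the largest falls (right) among called probe sets, on a log axis, with 1 point per array (7wk circles, 4wk squares). Lack of overlap between the ages was a condition of the choice, and the 3 caseins have the widest gaps.

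Luminal epithelial genes rose with the milk genes. All 29 tested members of the luminal and pan-epithelial list were above 0, with a median of 1.29, and 18 passed the test. The mean log2 ratio of the list was 0.56, 0.43 and 0.46 in 7wk arrays, against -1.01, -1.34 and -0.78 in 4wk arrays, without overlap. Cldn8 (probe set 1449091_at), a tight junction claudin, had 1.70, 2.10 and 2.17 at 7wk, against 0.0554, 0.0666 and 0.315 at 4wk, a log2 difference of 4.23 (SE 0.62, adjusted p = 0.00617 over probe sets). Mal2, which works in transport to the apical membrane, had 1.21, 1.64 and 1.37 at 7wk, against 0.195, 0.0643 and 0.275 at 4wk, a difference of 3.21 (SE 0.51). Both genes kept their calls in each of the 14 fits that left out 1 array. Elf5, a transcription factor of alveolar luminal progenitors, had 1.93, 2.57 and 1.51 at 7wk, against 0.642, 0.423 and 0.497 at 4wk, and rose by 1.93 (SE 0.29, adjusted p = 0.00615). Smaller rises were seen for the adhesion protein Epcam (1.62), E-cadherin (Cdh1, 1.52), the keratin Krt19 (1.46), the splicing regulator Esrp1 (1.46) and Krt18 (0.97), whose call held in 3 of the 14 fits. Krt8, the partner of Krt18, differed by 1.14 without passing the test (adjusted p = 0.0937). The count of the list was 9 without 4wk array B and 10 without any one of the 7wk arrays, and 0 with either the hybridisation controls or the scaling step as a covariate, where the median was 1.68 and 1.11.

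Basal and myoepithelial genes, which mark the outer, contractile layer of the duct, gave no call. Of 25 tested, 0 passed limma's test and 6 had an unadjusted p under 0.05, against 18.1% of all genes. The median was 0.20, and 19 were above 0, against 6018 of all 10671 genes. The list means did not overlap, at 0.14, -0.03 and -0.05 in 7wk arrays, against -0.21, -0.39 and -0.33 in 4wk arrays. Krt14 had 1.28, 0.952 and 1.17 at 7wk, against 0.610, 0.656 and 0.640 at 4wk, without overlap, and its difference of 0.82 missed the threshold (adjusted p = 0.0532). Krt5 overlapped between the ages (0.27, adjusted p = 0.686), and its sign turned with either covariate, to -0.14 and -0.36. The contractile genes Acta2 and Cnn1 differed by 0.40 and 0.65, and Myh11 by -0.11. Whether luminal and basal genes differ in their change was not tested.

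Among genes of hormone receptors and their responses, 5 of 19 tested rose and 0 fell, with a median of 0.78. The count was 1 without 4wk array A or B or any one of the 7wk arrays, and 3 without 3wk array C or any one of the 6wk arrays. Wnt4, a signal made by progesterone receptor-positive luminal cells, had 1.63, 1.30 and 1.78 at 7wk, against 0.0616, 0.119 and 0.524 at 4wk, a log2 difference of 3.31 (SE 0.68, adjusted p = 0.0294 over probe sets). Its call was lost without 4wk array A or B or any one of the 7wk arrays, with log2 differences between 2.64 and 4.19 over the 14 fits. Stc2 (stanniocalcin 2, an oestrogen-responsive secreted protein) had 1.48, 1.13 and 1.35 at 7wk, against 0.314, 0.411 and 0.437 at 4wk, and rose by 1.78 (SE 0.17, adjusted p = 0.000638). The transcription factors Tfap2c, Myb and Foxa1 rose by 1.49, 1.38 and 1.07, and the calls of Myb and Foxa1 held in 3 and 2 of the 14 fits. The receptors themselves were not called: Pgr (progesterone receptor) differed by 0.74 (adjusted p = 0.482) and Esr1 (oestrogen receptor alpha) by 0.35 (SE 0.68, adjusted p = 0.846). The 3 arrays of Esr1 at 7wk spread widely, at 1.48, 1.63 and 0.297, against 0.649, 1.16 and 0.461 at 4wk, and the difference was -0.01 without 7wk array A and -0.08 without 7wk array B. Gata3, a luminal transcription factor, differed by 1.11 (adjusted p = 0.198).

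Of 54 tested genes of branching and guidance 7 rose and 0 fell, with a median of 0.40. The count depended on single arrays: it was 0 without 7wk array C, 1 without 7wk array A or 4wk array A, 2 without 7wk array B or 4wk array B, 3 without 4wk array C and 4 without either 5wk array. Wnt5b rose by 1.96, the epithelial transcription factor Sox9 by 1.70, Tgfb3 by 1.31 and the growth factor pleiotrophin (Ptn) by 1.14, with calls that held in 10, 7, 5 and 3 of the 14 fits. For Wnt5b, Sox9 and Ptn only the gene mean was called, and none of their single probe sets. Those of Wnt5b differed by 2.81 and 1.11, and those of Sox9 by 2.40 and 1.01. Sox9 had 1.99, 1.39 and 1.64 at 7wk, against 0.386, 0.895 and 0.379 at 4wk, without overlap. Cell cycle genes gave 0 calls in 34 tested, with a median of -0.40. An unadjusted p under 0.05 was seen for 11, against 18.1% of all genes. Their list means overlapped, at -0.69, -0.70 and 0.09 in 7wk arrays, against 0.06, -0.24 and 0.07 in 4wk arrays. The proliferation marker Mki67 followed the same arrays, at 0.231, 0.240 and 0.865 at 7wk, against 1.23, 0.783 and 1.10 at 4wk (log2 difference -1.49, adjusted p = 0.101). With the hybridisation controls as a covariate the median of this list was 0.13.

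**Figure D3:**
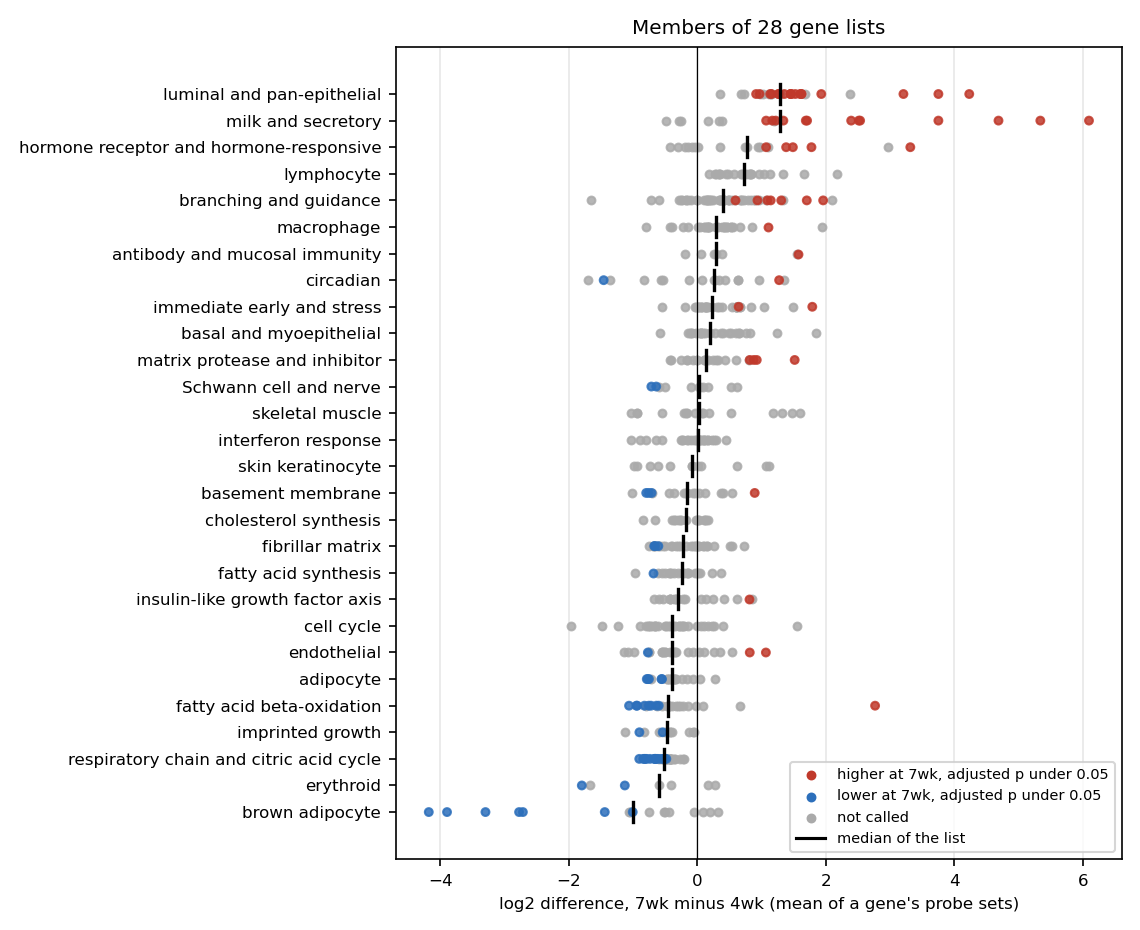
Log2 differences (7wk minus 4wk, x axis) of the tested members of 28 gene lists, ordered by median. Red points rose and blue points fell at an adjusted p under 0.05, grey points were not called, and black bars are medians; the luminal and milk lists lie at the top with medians of 1.29 and 1.28, and the brown adipocyte list at the bottom with -1.0.

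Genes of brown and beige fat cells were among the largest falls. Of 17 tested, 7 fell and 0 rose, with a median of -1.0, and the mean log2 ratio of the list was -0.28, -0.60 and -0.66 in 7wk arrays, against 0.61, 1.04 and 0.88 in 4wk arrays. Ppara (probe set 1449051_at), the nuclear receptor that switches on fatty acid oxidation, had 0.528, 0.411 and 0.357 at 7wk, against 7.57, 6.85 and 4.90 at 4wk. Ucp1, which makes mitochondria give off heat, had 0.991, 0.371 and 0.167 at 7wk, against 2.63, 5.58 and 3.96 at 4wk. Slc27a2, a fatty acid transporter and acyl-CoA synthetase, had 0.15, 0.141 and 0.1 at 7wk, against 1.34, 2.55 and 3.68 at 4wk. In all 3 genes each 4wk array exceeded each 7wk array, with log2 differences of -3.89 (SE 0.33, adjusted p = 0.000239 over probe sets) for Ppara, -3.29 (SE 0.57, adjusted p = 0.0148) for Ucp1 and -4.18 (SE 0.75, adjusted p = 0.0163) for Slc27a2. The call of Ppara held in each of the 14 fits that left out 1 array, that of Ucp1 was lost without 4wk array B or 7wk array B, and that of Slc27a2 without 4wk array B or 7wk array B or C. Over the 14 fits the difference of Ucp1 ran from -3.96 to -2.67 and that of Slc27a2 from -4.57 to -3.85. At 7wk the signals of Ppara and Slc27a2 lay below the limit for low levels on every array.

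Fabp3, a fatty acid binding protein of oxidative tissue, had 1.04, 0.539 and 0.514 at 7wk, against 2.73, 7.18 and 4.69 at 4wk, and fell by 2.77 (SE 0.35). Cox7a1, a cytochrome oxidase subunit of muscle and brown fat, had 0.724, 0.520 and 0.511 at 7wk, against 3.05, 4.60 and 3.87 at 4wk, and fell by 2.71 (SE 0.27). Cidea, a lipid droplet protein, fell by 1.44 and the coactivator Ppargc1a by 1.0. Elovl3, a fatty acid elongase induced by cold in brown fat, did not follow: it had 1.37, 1.04 and 1.51 at 7wk, against 0.998, 1.21 and 1.16 at 4wk (log2 difference 0.20, adjusted p = 0.678). Ratios of the 5 brown fat markers (Ucp1, Cidea, Ppargc1a, Cox7a1 and Elovl3) were summed. The sum ran from 3.25 to 4.90 in 7wk arrays, against 10.3 to 15.4 in 4wk arrays. Each ratio is to the median of its own probe sets, so the sum measures no amount of brown fat. The count of the list was 3 without 4wk array B and 4 without 7wk array C. It was 1 with the hybridisation controls as a covariate (median -0.99) and 1 with the scaling step (median -0.83). PPAR receptors with their partner RXR bind an element described as a direct repeat of AGGTCA with 1 base between the copies. Its exact letters were searched on both strands of the promoters of Ppara, Slc27a2, Ucp1, Fabp3 and Cox7a1. They were found in 0 of these and in 13 (0.0396%) of all 32851 promoters. With letters this rare, 0 matches were likely for any 5 genes, so the search cannot tell whether the receptors bind near these genes.

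The mitochondrial machinery moved by less per gene but broadly. All 37 tested genes of the respiratory chain and citric acid cycle were below 0, with a median of -0.51, and 16 passed the test. Uqcrfs1, the Rieske subunit of complex III, had 0.860, 0.793 and 0.782 at 7wk, against 1.52, 1.49 and 1.54 at 4wk, a log2 difference of -0.90 (SE 0.11, adjusted p = 0.00254). Sdhb, a subunit of complex II, had 0.760, 0.737 and 0.714 at 7wk, against 1.19, 1.32 and 1.38 at 4wk (-0.81). The complex I subunit Ndufs1 and the citric acid cycle enzyme Suclg1 fell by 0.84 and 0.82. List means were -0.23, -0.21 and -0.19 in 7wk arrays, against 0.25, 0.26 and 0.44 in 4wk arrays, without overlap. The number of calls depended on the fit: it was 3 in a fit to the 6 arrays alone, 4 without 4wk array B or 7wk array C, 6 without any one of the other arrays of the 2 ages, and 0 with either covariate, where the medians were -0.41 and -0.37.

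Of 26 tested genes of fatty acid beta-oxidation 8 fell and 1 rose, with a median of -0.45. The falls were 3 without 4wk array B or 7wk array B or C, and 4 without 4wk array C or 7wk array A. Acadvl, the first enzyme for very long chains, had 0.783, 0.717 and 0.746 at 7wk, against 1.54, 1.59 and 1.55 at 4wk, and fell by 1.06 (SE 0.12). The thiolase Acaa2 fell by 0.94 and the peroxisomal enzyme Ehhadh by 0.95. Acot1, a thioesterase that frees fatty acids from coenzyme A, went the other way, with 1.37, 1.68 and 2.09 at 7wk, against 0.226, 0.192 and 0.353 at 4wk, and rose by 2.77 (SE 0.24, adjusted p = 0.000336). Its close relatives share sequence with it, and which of them the probe set reads was not tested. Of 21 adipocyte genes 5 fell (median -0.40), among them the lipid chaperone Fabp4 by 0.79, lipoprotein lipase (Lpl) by 0.75 and the triglyceride-forming enzymes Dgat1 by 0.77 and Dgat2 by 0.56. That count was 1 without 4wk array A or B or 7wk array B, 2 without 7wk array C, and 3 without 7wk array A, 4wk array C, 3wk array B or either 5wk array. The hormones Adipoq and Lep were not called, at -0.32 and 0.28, nor was the fat cell regulator Pparg, at -0.71 (adjusted p = 0.0847). Fatty acid synthesis gave 1 fall among 21 genes (Gpam, -0.69, lost without 4wk array B or C or any one of the 7wk arrays). Cholesterol synthesis gave 0 calls among 17, with 3 at an unadjusted p under 0.05, against 18.1% of all genes.

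**Figure D4:**
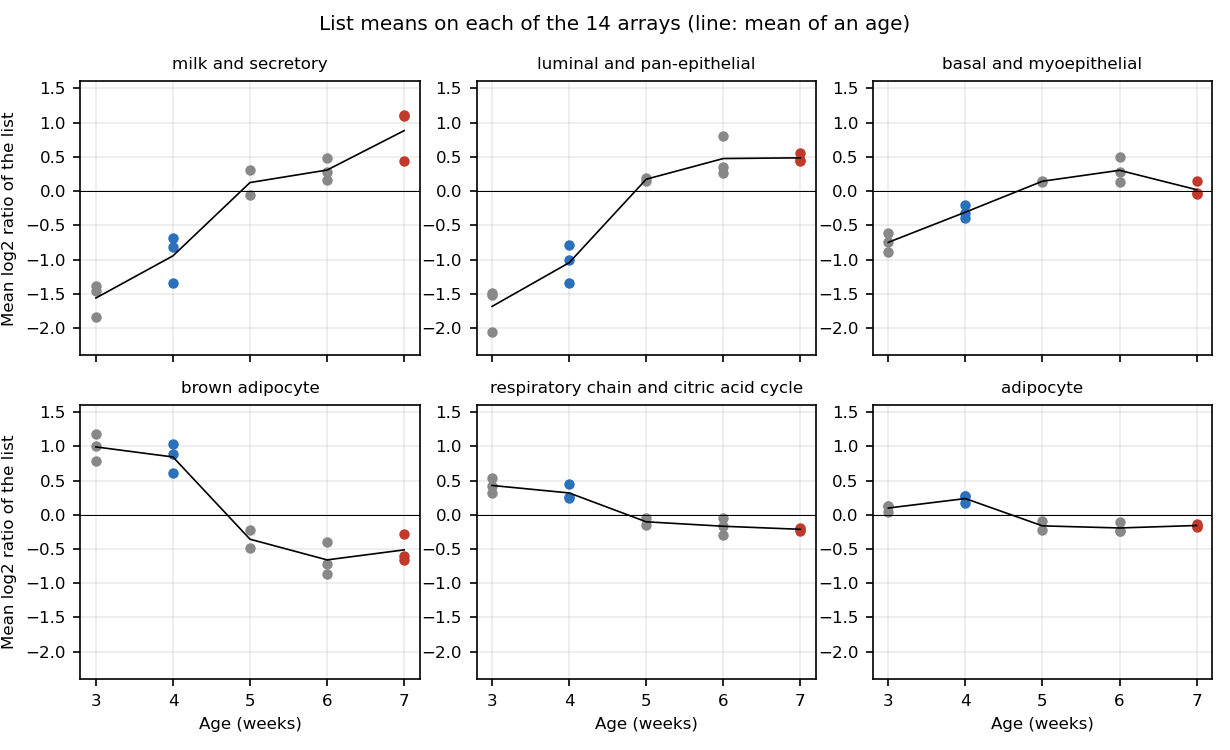
Mean log2 ratio of 6 gene lists (y axis) on each of the 14 arrays against age in weeks, with a line through the mean of each age; 4wk is blue and 7wk red. The milk and luminal lists lie higher, and the fat and mitochondrial lists lower, from 5wk on than at 4wk, and the milk list averages 0.88 at 7wk.

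Some matrix genes were called in each direction, while over all genes 2.33% rose and 1.44% fell. The list medians were small, at -0.16 for basement membrane, -0.22 for fibrillar matrix and 0.14 for proteases and their inhibitors. Of these lists only basement membrane had means that overlapped between the ages, and 8 of the 22 protease and inhibitor genes were below 0. Basement membrane genes gave 3 falls and 1 rise among 19: the collagen IV chains Col4a1 and Col4a2 and perlecan (Hspg2) fell by 0.79, 0.71 and 0.76, and fibulin 1 (Fbln1) rose by 0.89. Of 32 fibrillar matrix genes 3 fell, namely Col6a1 (-0.67), Sparc (-0.66) and Col1a2 (-0.61), and 0 rose. Proteases rose in 4 of 22 genes, with 0 falls: the stromelysin Mmp3 by 1.52, the gelatinase Mmp2 by 0.93, cathepsin K (Ctsk) by 0.88 and the plasminogen activator Plat by 0.82. Mmp3 had 2.57, 1.59 and 2.19 at 7wk, against 0.730, 0.585 and 0.899 at 4wk, and Mmp2 had 1.62, 1.45 and 1.28 at 7wk, against 0.778, 0.654 and 0.858 at 4wk. Neither gene overlapped between the ages. In the insulin-like growth factor axis the binding protein Igfbp5 rose by 0.81, alone among 19 genes, while Igf1 (-0.42) and Igf2 (-0.60) were not called, and Igf2 was at 0.36 when no filter on low levels was set. All 12 imprinted growth genes were below 0 (median -0.47) and 2 fell, Plagl1 by 0.90 and Ndn by 0.54. The falls were 1 each in the fibrillar, basement membrane and imprinted lists without 4wk array A or C or 7wk array B or C, and fibrillar falls were 5 without 3wk array A or 6wk array B. The call of Igfbp5 held in 4 of the 14 fits, and the rise of Fbln1 was lost without 4wk array A or B or 7wk array B or C.

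Calls among immune, vascular and nerve genes are given by list, while over all genes 2.33% rose and 1.44% fell. Igha, the heavy chain of the antibody secreted into milk, had 1.79, 1.89 and 1.80 at 7wk, against 0.489, 0.425 and 1.11 at 4wk, and rose by 1.57 (adjusted p = 0.0389), alone among 7 antibody genes. All 23 lymphocyte genes were above 0, but 0 were called, with 4 at an unadjusted p under 0.05, against 18.1% of all genes. Their list means overlapped, at 0.11, 0.95 and 0.68 in 7wk arrays, against 0.31, -0.77 and -0.13 in 4wk arrays. Ratios of the markers Cd3e, Cd79b and Ms4a1 summed to between 2.98 and 6.93 at 7wk, against 1.36 to 4.51 at 4wk, although the lymph nodes had been taken out. This sum of ratios measures no amount of cells. Of 30 macrophage genes only Cd14, a receptor for bacterial lipopolysaccharide, rose (1.10), while Csf1r (0.11), Cd68 (0.19), Adgre1 (0.47), C1qa (0.56) and Lyz2 (0.01) were not called. Most endothelial genes were lower at 7wk: 18 of 25 were below 0 and the median was -0.40. Of the 25, 17 had an unadjusted p under 0.05, against 18.1% of all genes. Their list means did not overlap, at -0.05, -0.17 and -0.20 in 7wk arrays, against 0.23, 0.11 and 0.08 in 4wk arrays. Egfl7 fell by 0.77, while Cdh5 (-1.14, adjusted p = 0.0700) and Kdr (-1.08, adjusted p = 0.0834) missed the threshold, and Vwf (1.07) and Pdpn (0.82) rose. Without 4wk array A or B or 7wk array C the list gave 0 calls, its rises were also lost without 7wk array A or B, and its falls were 3 without 7wk array A or 3wk array A. Of the erythroid genes Alas2, which starts haem synthesis in red cell precursors, fell by 1.80 and the transferrin receptor Tfrc by 1.13, among 7. Of the 7, 2 were above 0, and the red cell markers Hba-a1 (-0.60) and Slc4a1 (-1.66) were not called. Probe sets of Tfrc differed by -1.74, -1.18 and -0.46, the last not called. The myelin genes Mbp (-0.71) and Mal (-0.64) fell, among 11 Schwann cell and nerve genes. That list had a median of 0.02, with 6 genes above 0. Probe sets of Mbp ran from -1.27 to 0.25, and those of Mal (-1.01 and -0.26) were not called on their own. The Schwann cell marker Sox10 differed by 0.78, 0.65 and 0.16 in its probe sets, none of them called. Interferon response (28 genes), skeletal muscle (16) and skin keratinocyte (12) lists gave 0 calls, with 3, 2 and 2 genes at an unadjusted p under 0.05. The share over all genes was 18.1%. Of clock genes Cry1 rose by 1.27 and Dbp fell by 1.46, among 17, and of immediate early and stress genes Hspa1b (1.79) and Jun (0.64) rose, among 33. The calls of Igha, of the 2 clock genes and of the 2 myelin genes were all lost without 4wk array A or B or 7wk array B or C, and over the 14 fits they held in 6 (Igha), 7 (Cry1), 10 (Dbp), 6 (Mbp) and 4 (Mal). Only 1 erythroid gene was called without 4wk array B or 7wk array A or B, and only 1 immediate early gene without 4wk array B or C or any one of the 7wk arrays.

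Several of the largest differences belong to no list. Of the 30 probe sets with the largest changes, 9 passed the filter on low levels only through the arrays of the age where they were high, so they could enter the test only by differing. These are Dkkl1, Cxadr, Cd28 and Dpp4 among the rises and Cpz, Bzw2, Oga, Nfatc4 and Nepn among the falls, and their values are given as a description. Among the 594 called there are 19 such probe sets, counted over the 78 whose level could be read. Mycl, a member of the Myc family, had 1.01, 1.13 and 1.08 at 7wk, against 0.0996, 0.0883 and 0.0976 at 4wk (probe set 1434777_at). The arrays of each age lay close together, and its log2 difference of 3.50 (SE 0.22) had the smallest adjusted p of all probe sets (7.22e-05). The other probe sets of Mycl differed by 0.84 and 0.30, neither called, and the gene mean by 1.55. Dkkl1, a relative of the Dickkopf proteins, had 7.71, 4.90 and 6.22 at 7wk, against 0.433, 0.947 and 0.831 at 4wk, a log2 difference of 3.14. The virus receptor and junction protein Cxadr had 5.11, 4.92 and 6.71 at 7wk, against 0.648, 0.626 and 0.622 at 4wk, a log2 difference of 3.13, while its other probe sets differed by 0.87 and 0.57, neither called, and the gene mean by 1.52. Cd28, a costimulatory receptor of T cells, had 5.59, 4.33 and 6.48 at 7wk, against 0.864, 0.637 and 0.541 at 4wk, a log2 difference of 3.01, and no array of another age reached the level limit. Its other probe set differed by 1.59 and was not called (adjusted p = 0.278), and the T cell marker Cd3e overlapped between the ages (1.04, adjusted p = 0.542). The peptidase Dpp4 differed by 3.00 in 1 probe set, where no array of another age reached the level limit, and by 0.52 in the other, which was not called. The microtubule-associated Trim46 rose by 3.00. The ganglioside enzyme B4galnt1 rose by 4.06, but its second probe set differed by -0.21 and its call was lost in 10 of the 14 fits that left out 1 array. Mmgt2 rose by 3.07 and lost its call in 8 of the 14 fits.

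Other large differences below 0 were those of the carboxypeptidase Cpz, with 0.712, 0.311 and 0.242 at 7wk, against 3.38, 4.80 and 5.40 at 4wk (-3.56), and of the proteoglycan nephrocan (Nepn), with 0.158, 0.251 and 0.316 at 7wk, against 1.45, 1.87 and 0.692 at 4wk (-2.41). Slc4a4, a sodium bicarbonate cotransporter, fell by 2.40, angiotensinogen (Agt) by 2.14 and the prolactin gene Prl by 2.11, and the transcription factor Nfatc4 differed by -2.76. Agt had 0.660, 0.643 and 0.558 at 7wk, against 1.74, 2.28 and 5.16 at 4wk. The single called probe sets of Bzw2 (-3.01), Oga (-2.96) and Baz2a (-2.20) each had another probe set of the same gene near or above 0, at -0.05, 0.50 and 0.06. Among the probe sets of Slc4a4 and Nfatc4 the highest values were 0.02 and 0.13. The calls of Agt and Prl held in 9 of the 14 fits each and that of Baz2a in 8. Carboxypeptidase N subunit Cpn2 fell by 2.36 and lost its call in each of the 14 fits. Of the 30 probe sets, 15 kept their call in all 14 fits. Dkkl1, Cxadr, Cd28 and Nfatc4 are among them, and the filter that they passed only through their high age was not repeated in these fits. No direction could change in these fits, since lack of overlap between the ages was a condition of the choice. The signal before division could be read for 8 of the 15 rises and 10 of the 15 falls. In all of these the lower age was below the limit for low levels of 200 scaling steps on each of its arrays, so the size of their folds rests on dim probe sets, and the level of the others is unknown.

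The ages between 4 and 7 weeks place the differences of single genes. The called probe set of Mycl averaged 0.115 in 3wk arrays, 0.0952 in 4wk arrays, 1.31 in 5wk arrays, 1.35 in 6wk arrays and 1.08 in 7wk arrays. The step of this probe set stood between 4 and 5 weeks (5wk minus 4wk log2 difference 3.78, adjusted p = 0.000106). Csn2 averaged 0.124 ± 0.0223 (4wk), 1.38 ± 0.127 (5wk), 2.91 ± 2.64 (6wk) and 14.2 ± 2.23 (7wk; SD, n = 3, and 2 for 5wk), with log2 differences of 3.48 (adjusted p = 0.0378) for 5wk minus 4wk and 2.75 (adjusted p = 0.0489) for 7wk minus 6wk. Ppara averaged 6.44 (4wk), 1.0 (5wk), 0.176 (6wk) and 0.432 (7wk), with log2 differences of -2.77 for 5wk minus 4wk, -5.19 for 6wk minus 4wk and 1.29 (adjusted p = 0.111) for 7wk minus 6wk. Fabp3 averaged 11.6 (3wk), 4.87 (4wk), 0.842 (5wk) and 0.698 (7wk). Cd28 averaged 0.681 (4wk), 0.801 (5wk), 1.09 (6wk) and 5.46 (7wk). Nepn averaged 1.33 (4wk), 1.07 (5wk), 1.18 (6wk) and 0.242 (7wk). In both the arrays at 7wk stood apart from those at 6wk. Both probe sets passed the filter on low levels only through their high age, so these values are a description. Over genes, 81 of 10671 (0.759%) were called for 5wk against 4wk, 803 (7.53%) for 6wk against 4wk and 38 (0.356%) for 7wk against 6wk. These comparisons share arrays with 7wk against 4wk, so their lists were not set against each other. The 6wk arrays had the lowest 5′ to 3′ ratios of the pyruvate carboxylase control in the series, and the part of this in the counts was not tested.

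**Figure D5:**
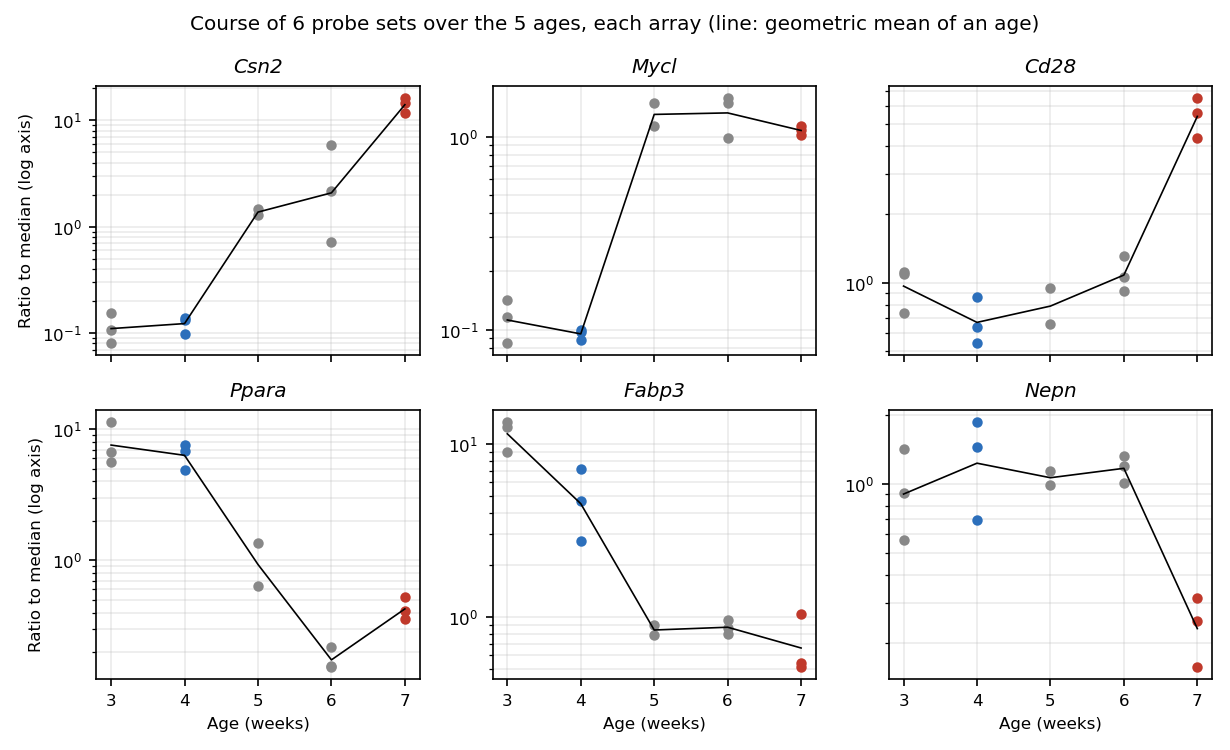
Ratios of 6 probe sets (y axis, log scale) on each of the 14 arrays against age in weeks, with a line through the geometric mean of each age; 4wk is blue and 7wk red. Mycl and Fabp3 shift between 4 and 5 weeks, Ppara declines up to 6 weeks and is higher at 7wk than at 6wk, and Csn2 is highest at 7wk. Cd28 and Nepn, which passed the filter on low levels only through their high age, are shown as a description and shift between 6 and 7 weeks.

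Arrays at 6wk and 3wk are separate from those at 7wk and 4wk and give the same 3-week span 1 week earlier. Each comparison was fitted to its own 6 arrays, so that nothing was shared. The fit for 7wk against 4wk called 159 of 18480 probe sets (0.860%), and that for 6wk against 3wk called 813 (4.40%). Both called 73, which is 45.9% of the first list and 8.98% of the second, and all 73 moved in the same direction. Of the 120 (0.649%) probe sets higher at 7wk than at 4wk, 111 were also higher at 6wk than at 3wk (median 1.84), against 56.1% of all probe sets, and of the 39 (0.211%) lower ones 38 were lower (median -0.88). The 2 spans overlap in age, so the second is no replicate of the first at the same ages. The pyruvate carboxylase control had 5′ to 3′ log2 ratios of -2.8, -2.5 and -1.8 at 6wk, against 0.1, -0.7 and 0.3 at 3wk. Those of actin were -0.46, -0.79 and -0.08 at 6wk, against 0.18, 0.09 and -0.06 at 3wk. Neither overlapped, and their part in the shared calls was not tested.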

How the data were processed

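The authors deposited 1 table of linear ratios for 14 arrays: per the values, the median across arrays is 1 to within 0.001 for 98.48% of 22690 probe sets, so each was divided by its median. No source used here names the software. The 337 probe sets with a median below 0.98 showed that each array had been scaled by its own step. With the steps, the signal before division was recovered for 8567 probe sets (37.76%); 4146 that reached 200 steps on fewer than 2 arrays were left out, which left 18480 tested besides 64 controls. No 2 arrays were identical, and array medians at 4wk and 7wk ran from 0.98 to 1.02, so no further normalization was applied. For arrays, depth has no count, and their number limits precision.

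Ratios were put on the log2 scale without offset. limma 3.58.1 (R 4.3.3) fitted a single model, with age as factor, to the 14 arrays, two-sided, with Benjamini-Hochberg adjustment over all probe sets or genes and a threshold of 0.05; a gene is the mean of its probe sets. Symbols were taken from the annotation of the platform (691 probe sets name several genes and 1555 none; 20351 of 20380 matched RefSeq). The model was tested on simulated data. Tables used Python 3.11.15 with pandas 2.3.3 and numpy 2.4.6, and plots matplotlib 3.10.9.

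The comparison, the 28 gene lists (744 entries, 633 tested) and the markers were chosen with earlier results of these data known. Named are the 15 largest rises and 15 largest falls among called probe sets without overlap (1 per gene), up to 4 called members of each list, the markers, and Esr1, Pgr, Prlr, Krt8, Krt18, Krt5, Krt14, Elf5, Gata3, Foxa1, Csn2, Wap, Mki67, Adipoq, Lep, Ucp1, Ppara, Pparg, Igf1 and Igf2, whatever their values. Prlr was not analysed here. Further list members were named after their values were seen. Alternatives were other filters, normalizations and covariates, the 6 arrays alone, the letter as a block and leaving out each array. The letters did not pair the arrays: deviations of same-letter arrays from their age means correlated at 0.004 (A), -0.034 (B) and -0.013 (C).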

Additional observations from a re-analysis of the deposited data

How the results depend on the processing

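The 594 calls over probe sets (337 higher, 257 lower, 3267 at an unadjusted p under 0.05) and the 403 over genes moved with the fit. They became 159 and 128 with the 6 arrays alone, 285 and 260 with a trended, robust prior, 3 and 1 with the hybridisation controls as covariate, and 13 and 6 with the scaling step (added after seeing the data), where 12 of the 13 were among the 594. Quantile normalization gave 981 and 622, with 45.6% of called probe sets higher against 56.7%; no filter on level gave 339 probe sets. Leaving out 1 array gave 147 (without 4wk B) to 685 (without 3wk A) probe sets and 137 to 494 genes (256 without 4wk C); it gave 201, 174, 309 and 234 probe sets without 4wk A, 7wk B, 7wk A and 7wk C. The 3 probe sets called with the hybridisation controls were Fabp3, Mycl and the kinase gene Tnk1, the last named after its values were seen.

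Calls among luminal, milk, brown adipocyte and respiratory genes were 18, 13, 7 and 16. With the hybridisation controls they were 0, 0, 1 and 0, and with the scaling step 0, 2, 1 and 0; the trended prior left 4 luminal and 4 milk calls, and the 6 arrays alone 3 respiratory ones. Without 1 array they ran from 9 to 23, 10 to 13, 3 to 8 and 4 to 18, and the medians from 1.2 to 1.44, 1.23 to 1.49, -1.06 to -0.72 and -0.54 to -0.42. The luminal median was 1.68 with the hybridisation controls, the milk median 1.84 with the scaling step, and the respiratory median -0.41, -0.37 and -0.60 with the controls, the step and quantile normalization.

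Of 81 called gene means named by the rule, 33 kept their call in all 14 fits that left out 1 array and 67 in at least 7. Directions turned for Esr1 (-0.08 with the step, -0.01 without 7wk A, -0.08 without 7wk B), Krt5 (-0.36 with the step, -0.14 with the controls), Wap (-0.16 with the controls, -0.01 without 4wk B), Igf2 (0.36 without a filter on level) and Baz2a (0.06 under a stricter filter, which removed probe sets). The causes of the other turns were not tested. The letter as replicate block gave 481 probe sets and 373 genes; every same-letter correlation was below 0.1.

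Dividing by the median removed signal levels for most probe sets, and 63 of the 538 calls compare with an age below the level limit on all its arrays. With 3 pools an age, an effect missed here is not shown to be absent.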
